A study of Mus musculus with 2 samples.

Results

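This report follows 9 genes of the canonical Wnt pathway, *Sp5*, *Axin2*, *T*, *Lef1*, *Cdx1*, *Nkd1*, *Tcf7*, *Tcf7l1* and *Ctnnb1*, of 31053 genes in the count matrices. They were chosen by name as Wnt response and Wnt effector genes, with earlier results of these data known. All 9 were found in both libraries. The cells are E14 mouse embryonic stem cells (mESCs), grown without feeders in medium with 15% fetal bovine serum and 1000 U/ml LIF, a cytokine that maintains self-renewal. One droplet library came from the parental wild-type line (WT) and 1 from a *Smad1*/*Smad5* double knockout of the same line made with CRISPR-Cas9 (S1/5 dKO), so that the SMAD1 and SMAD5 mediators of BMP signaling were targeted. The sources used here do not say which dKO clone was sequenced. Cells were kept if they had 1000 detected genes or more and no more than 5% of their UMIs (unique molecular identifiers, each a counted RNA molecule) from mitochondrial genes, which left 2236 WT cells with a median of 38662 UMIs and 2910 S1/5 dKO cells with a median of 34548.5 UMIs.

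With 1 library per genotype there was no test between genotypes, and every interval below is a 95% interval for counting error only. Intervals of levels and ratios take UMIs as independent, so they leave out the spread between cells of a library. Levels are UMIs per 1000000 UMIs of the library or of the cells named (CPM). The kit counts a tag at the 3′ end of each RNA, so a level does not scale with gene length, and levels are compared for 1 gene at a time. Of the targeted genes, only *Smad1* had a lower mRNA level in the library labelled S1/5 dKO: *Smad1* stood at 13.4 CPM (WT) and 9.17 CPM (S1/5 dKO), whereas *Smad5* stood at 6.05 and 9.09 CPM. The tags do not show the edited sites. Genes induced by BMP signals did go with the label. Of the 7 listed targets that had enough UMIs, 4 were at least 1.5-fold lower and none higher, beside 2.61% and 2.81% of all genes. The log2 ratio was -1.01 for *Id1*, -1.76 for *Id2*, -0.75 for *Id3* and -0.67 for *Smad6*. The second library is therefore called the dKO-labelled library, after its label. All 7 pluripotency markers checked (*Pou5f1*, *Sox2*, *Nanog*, *Zfp42*, *Esrrb*, *Dppa5a* and *Tdgf1*) were above 10 CPM in both libraries, with a summed level of 7109 and 7347 CPM, while 6 mesoderm markers, *T* among them, summed to 1.97 and 1.61 CPM and 6 primitive endoderm markers to 2.65 and 2.52 CPM. The 6 trophoblast markers summed to 23.6 and 15.2 CPM, with 1 of them above 10 CPM, and 6 markers of 2-cell-like cells to 1.96 and 4.33 CPM. None of the 6 fibroblast markers was above 10 CPM, and *Col3a1* and *Lum* were at 0 in both libraries. No cell barcode was shared between the filtered cells of the libraries.

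In the canonical pathway, a Wnt ligand bound to a Frizzled receptor and an LRP co-receptor stops the destruction complex, of which AXIN proteins are the scaffold, from degrading β-catenin, the product of *Ctnnb1*. β-catenin then enters the nucleus and binds TCF/LEF factors, among them those encoded by *Tcf7*, *Lef1* and *Tcf7l1*. *Tcf7l1* (TCF3) acts in mESCs mainly as a repressor of pluripotency genes, and loss of this repression is one way in which Wnt signals support self-renewal. *Axin2* and *Nkd1* encode feedback inhibitors, *Sp5* a zinc finger factor that feeds back on Wnt targets, *T* (Brachyury) the T-box factor of the primitive streak, and *Cdx1* a homeobox factor of the posterior embryo. In GRCm38 the gene spans are chr2:70474923-70477729 (+) for *Sp5*, chr11:108920349-108950783 (+) for *Axin2*, chr17:8434423-8442496 (+) for *T* and chr6:72626378-72789254 (-) for *Tcf7l1*, by the GENCODE annotation used here.

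TCF/LEF factors bind a core of CTTTG, which on the other strand reads CAAAG. The 250 bases before the RefSeq start site (GRCm38.p6) are shown for *Sp5*, which led the question here, and for *Axin2* and *T*, targets set beside it, to show how unlike these promoters are in that core; capitals mark each match to CTTTG on either strand, in the C57BL/6J reference and not the E14 genome. The regions are chr2:70474673-70474922 (+) for *Sp5*, chr11:108920099-108920348 (+) for *Axin2* and chr17:8434173-8434422 (+) for *T*.
Sp5: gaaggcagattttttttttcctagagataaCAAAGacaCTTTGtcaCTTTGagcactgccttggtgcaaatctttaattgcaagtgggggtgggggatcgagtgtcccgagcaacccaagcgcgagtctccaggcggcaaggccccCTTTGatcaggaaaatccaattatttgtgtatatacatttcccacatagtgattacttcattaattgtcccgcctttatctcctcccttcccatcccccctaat
Axin2: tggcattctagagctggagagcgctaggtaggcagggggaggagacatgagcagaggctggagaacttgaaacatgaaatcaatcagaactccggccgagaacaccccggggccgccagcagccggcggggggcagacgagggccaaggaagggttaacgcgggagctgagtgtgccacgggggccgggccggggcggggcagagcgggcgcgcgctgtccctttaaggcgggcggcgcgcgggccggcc
T: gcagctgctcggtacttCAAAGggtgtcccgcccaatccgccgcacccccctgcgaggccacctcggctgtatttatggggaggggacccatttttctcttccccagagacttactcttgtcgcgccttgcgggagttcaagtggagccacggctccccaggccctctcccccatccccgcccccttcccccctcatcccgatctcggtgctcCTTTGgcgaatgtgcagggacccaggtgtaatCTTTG
The *Sp5* window holds 4 matches, of which 3 lie together 220, 212 and 204 bases before the start and 1 lies 104 bases before it. At least 4 matches were found in 0.773% of the 32851 RefSeq windows of this length. The *T* window holds 3 matches, 233, 37 and 5 bases before the start, and 3.94% of windows hold at least 3. The *Axin2* window holds none, while 48.6% of all windows hold at least 1. These windows also differ in their share of G and C bases, at 46% for *Sp5*, 69.2% for *Axin2* and 62.8% for *T*. The shares over all windows were not matched for it. Of the other members with a window, *Lef1* has 1 to 3 matches in its 4 windows, *Tcf7l1* has 1, and *Nkd1*, *Tcf7* and *Ctnnb1* have none. A longer form, the core followed by 2 bases that are each A or T on the strand read as CTTTG, overlaps these matches. It was found in 14.8% of windows and in 2 places of the *Sp5* window. A match of letters is a description of the window and not a binding site.

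*Sp5* and *Cdx1*, both response genes, were higher in the dKO-labelled library, and the repressor gene *Tcf7l1* was lower in it. *Sp5* was at 5.48 CPM (5.02 to 5.97) in WT from 526 UMIs and at 11.3 CPM (10.7 to 12.0) in the dKO-labelled library from 1236 UMIs, a log2 ratio of 1.05 (0.90 to 1.20). *Cdx1* was at 0.750 CPM (0.587 to 0.945) in WT from 72 UMIs and at 1.61 CPM (1.38 to 1.86) in the other library from 175 UMIs, a log2 ratio of 1.10 (0.69 to 1.51). *Tcf7l1* was at 25.9 CPM (24.9 to 26.9) in WT and at 16.8 CPM (16.0 to 17.6) in the dKO-labelled library, a log2 ratio of -0.62 (-0.71 to -0.53). For these 3 genes the counting intervals of the libraries do not overlap. *Sp5* UMIs were unevenly spread over cells, which its intervals leave out.

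The other response genes lay closer together. *Axin2* was at 2.16 CPM from 207 WT UMIs and at 2.44 CPM from 266 UMIs of the other library, a log2 ratio of 0.18 (-0.09 to 0.45). *Nkd1* had 81 and 106 UMIs, with a log2 ratio of 0.20 (-0.23 to 0.64). *Lef1* had 44 and 56 UMIs, with a log2 ratio of 0.16 (-0.43 to 0.77). *T* was rare, with 19 UMIs in WT and 16 in the other library, each in a cell of its own, and was not counted among the genes with at least 50 UMIs. *Tcf7*, whose protein activates targets with β-catenin, was at 8.25 and 8.64 CPM, a log2 ratio of 0.07 (-0.07 to 0.20). *Ctnnb1* was at 127 and 118 CPM, a log2 ratio of -0.11 (-0.15 to -0.08), which is off 0 by counting error but is a change of 1.08-fold.

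**Figure D1:**
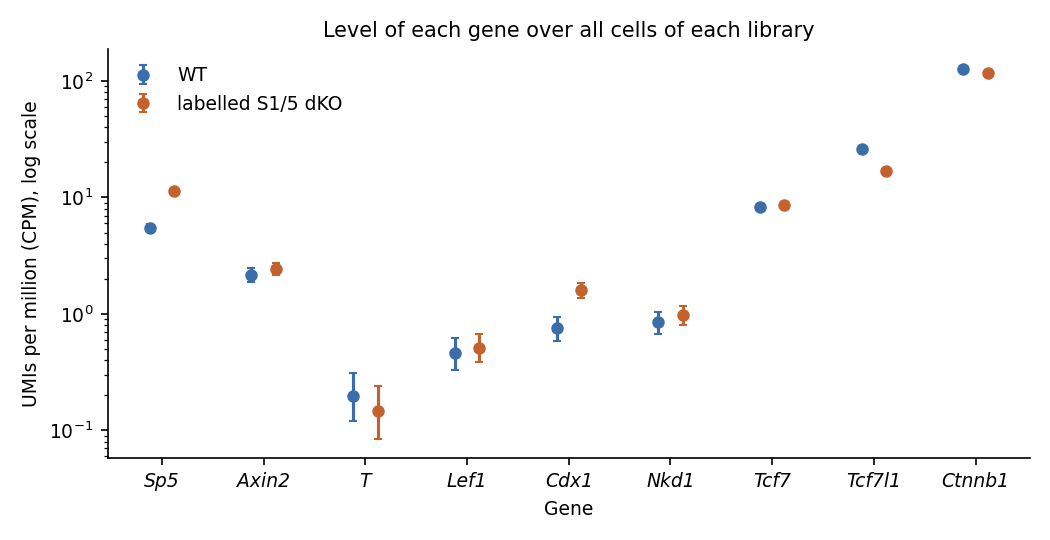
Level of the 9 Wnt pathway genes in WT (blue) and the dKO-labelled library (orange), as CPM on a log axis; points are 1 library each and bars are exact Poisson intervals, hidden by the point where narrow. *Sp5* stands at 5.48 and 11.3 CPM and *Cdx1* at 0.750 and 1.61 CPM, while *Tcf7l1* stands at 25.9 and 16.8 CPM.

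In all, 3 of the 8 members with at least 50 UMIs over both libraries were at least 1.5-fold apart. With all cells thinned to 10000 UMIs this was 5, since *Axin2* then had a log2 ratio of 0.59 and *Lef1* of 0.70. Over all 13654 such genes, 2.81% were at least 1.5-fold higher in the dKO-labelled library and 2.61% at least 1.5-fold lower. The wider pathway was counted in the same way. Of 114 genes listed as Wnt targets, ligands, receptors, inhibitors, cytoplasmic or nuclear components, 85 had enough UMIs. Of these, 4 were at least 1.5-fold higher (*Apc2*, *Cdx1*, *Sp5* and the ligand *Wnt5b*) and 4 at least 1.5-fold lower (*Tcf7l1*, the ligands *Wnt3* and *Wnt4*, and *Wls*, which carries Wnt proteins to the cell surface). These shares stand beside 2.81% and 2.61% of all genes, but they include the members *Cdx1*, *Sp5* and *Tcf7l1*. Members and lists were chosen with earlier results of these data known. Without the members, only *Apc2* and *Wnt5b* were higher and only *Wnt3*, *Wnt4* and *Wls* lower. No excess over all genes is read from these counts. Of the 73 listed genes with at least 50 UMIs in each library, 2 were higher and 2 lower. The median log2 ratio of these 73 was -0.02, against -0.01 over all genes. Fewer cells with a gene's RNA and less RNA per cell cannot be told apart in these summed levels.

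*Sp5* was unevenly spread over cells in both libraries. Every cell was thinned to 10000 UMIs so that depth did not set detection, which left out 43 WT cells and 67 cells of the other library with fewer UMIs. At that depth 100 of 2193 WT cells had at least 1 *Sp5* UMI (4.56%, exact binomial interval 3.73 to 5.52%), as did 234 of 2843 cells of the dKO-labelled library (8.23%, 7.25 to 9.30%). A Poisson spread at the same means would give 5.33% and 11.7%. At full depth 12.8% and 16.5% of cells had an *Sp5* UMI. The ratio of variance to mean of the thinned *Sp5* UMIs was 1.31 in WT and 1.98 in the other library, where 1 is a Poisson spread. Most positive cells stood at the lowest count: 82 of the 100 WT cells and 157 of the 234 others had exactly 1 UMI. At 3 UMIs or more there were 2 WT cells, against 22 cells with 3 to 5 UMIs and 2 with 6 to 8 in the dKO-labelled library. The largest number of *Sp5* UMIs in a cell at full depth was 10 in WT and 25 in the other library.

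**Figure D2:**
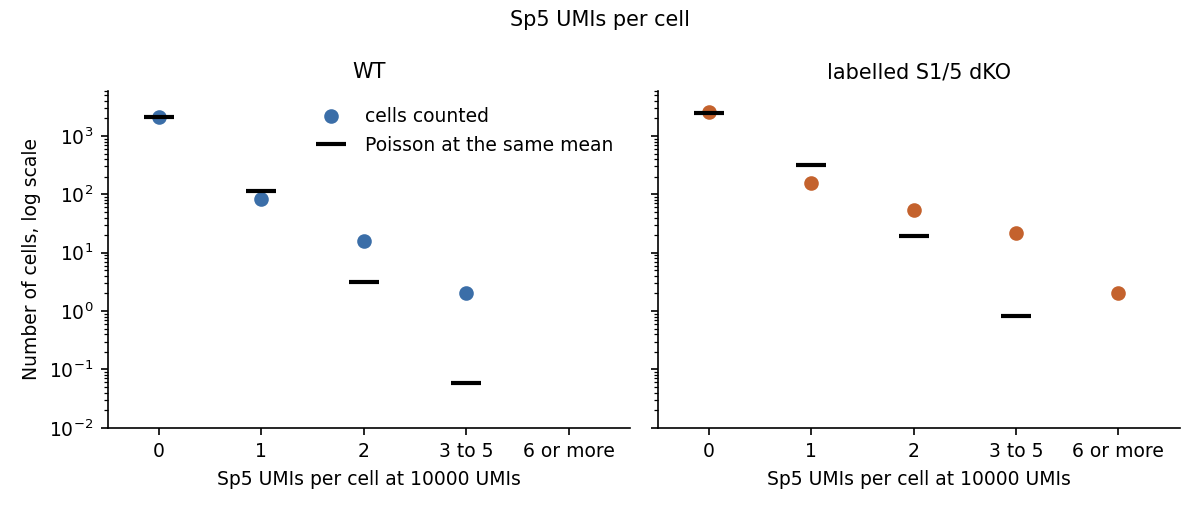
Number of cells (log axis) by *Sp5* UMIs after thinning each cell to 10000 UMIs, in WT (left, 2193 cells) and the dKO-labelled library (right, 2843 cells); points are cells counted and black bars the number that a Poisson spread at the same mean gives, not drawn below 0.01 cells. With 2 UMIs there were 16 WT cells against 3.11 for the Poisson spread, and 53 cells against 19.5 in the other library.

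The other members came closer to a Poisson spread. *Axin2* was found in 1.78% of the thinned WT cells, with 1.76% for a Poisson spread, and in 2.53% of cells of the other library, with 2.64%. *Tcf7l1* was found in 22.2% and 15.3%, with 23.0% and 15.5% for a Poisson spread. The ratio of variance to mean was 0.98 and 1.08 for *Axin2*, 1.15 and 1.01 for *Tcf7*, and 0.99 and 1.03 for *Cdx1*. For *Lef1* it was 1.00 in WT and 1.41 in the dKO-labelled library, from 16 positive cells there. Free RNA was not measured in a cell type that lacks these genes, since the libraries hold mESCs. Barcodes with 10 to 100 UMIs carried *Sp5* at 3.97 CPM (7 UMIs) in WT and 8.17 CPM (16 UMIs) in the other library, with intervals (1.60 to 8.18 and 4.67 to 13.3 CPM) that hold the level over all cells; the part of free RNA in cells with 1 *Sp5* UMI was not tested.

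The question put to these data was whether the *Sp5*-positive cells, those with at least 1 *Sp5* UMI at 10000 UMIs, show a general Wnt response. No such response was seen in their summed counts. The 6 other response genes together (*Axin2*, *T*, *Lef1*, *Cdx1*, *Nkd1* and *Tcf7*) were at 12.1 CPM in *Sp5*-positive and 12.7 CPM in *Sp5*-negative WT cells, a log2 ratio of -0.07 (-0.49 to 0.32). They were at 13.1 and 14.4 CPM in those of the dKO-labelled library, a log2 ratio of -0.14 (-0.43 to 0.14). *Tcf7* gave most of these UMIs. Without it the log2 ratios were 0.02 (-0.70 to 0.67) from 20 UMIs in positive WT cells and -0.19 (-0.67 to 0.27) from 42 UMIs in positive cells of the other library. *Sp5* itself, which chose the cells, was at 51.1 and 97.0 CPM in the positive cells and at 3.26 and 4.16 CPM in the negative ones. At full depth 187 WT cells and 243 cells of the other library classed as negative did hold an *Sp5* UMI.

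No single response gene had a log2 ratio with an interval off 0 in either library. Most of these genes had few UMIs in positive cells, so a modest rise could not be seen. By its value alone only *Lef1* stood higher in both. *Axin2* was at 1.35 CPM in positive WT cells (6 UMIs) and 2.20 CPM in negative ones (201 UMIs), a log2 ratio of -0.71 (-2.17 to 0.44). In the dKO-labelled library *Axin2* was at 2.14 CPM (18 UMIs) and 2.44 CPM (245 UMIs), a log2 ratio of -0.19 (-0.97 to 0.50). Both intervals hold 0, and the second leaves out a ratio above 1.42-fold. *Lef1* was higher in positive WT cells, at 1.12 against 0.427 CPM, from only 5 UMIs, with a log2 ratio of 1.39 (-0.31 to 2.74), and its log2 ratio in the other library was 0.52 from 6 UMIs. *Cdx1* lay on opposite sides, at 0.61 (-1.06 to 1.90) in WT from 5 UMIs and -0.60 (-1.76 to 0.36) in the other library from 9 UMIs. *Nkd1* was at -0.35 from 3 UMIs and 0.16 from 9 UMIs. *T* had 1 UMI in the positive WT cells and none in the positive cells of the dKO-labelled library, against 18 and 16 UMIs in negative cells.

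The effectors were counted far more precisely, and each interval held 0 when all UMIs of the cells were used. *Tcf7* had log2 ratios of -0.12 (-0.66 to 0.37) and -0.10 (-0.48 to 0.25), *Tcf7l1* of 0.20 (-0.06 to 0.46) and 0.16 (-0.08 to 0.40), and *Ctnnb1* of -0.05 (-0.17 to 0.08) and -0.03 (-0.12 to 0.07). The ratios of *Tcf7* and *Tcf7l1* depended on the setting. From thinned UMIs *Tcf7* was at 0.37 in WT and 0.63 in the dKO-labelled library, and with cells thinned to 5000 UMIs it was at 0.52 in WT. *Tcf7l1* in the dKO-labelled library was at -0.27 with cells thinned to 5000 UMIs and at 0.61 in the lowest of 3 groups of cells by mitotic genes. The *Ctnnb1* intervals lie within 1.13-fold, with values down to -0.37 in WT and -0.15 in the other library under other settings, and they say nothing of β-catenin protein, which the pathway controls. In WT, 1 of the 6 other members with at least 50 UMIs was at least 1.5-fold higher in positive cells (*Cdx1*) and 1 lower (*Axin2*), where 6.09% of 12418 genes were higher and 8.15% lower. In the dKO-labelled library, none of 7 was higher and 1 was lower (*Cdx1*), where 5.37% of 12621 genes were higher and 9.25% lower. Both counts rest on genes with few UMIs. Under other depths and thresholds the number of higher members ran from 0 to 3 in WT and from 0 to 2 in the other library. At 5000 or 20000 UMIs, or with at least 2 *Sp5* UMIs, 5.12% to 12.9% of all genes were higher in WT. In the other library this share was 5.17% to 9.47%. Median depth was 40770 and 38877 UMIs in positive and negative WT cells, and 32155.5 and 35186 in the other library. Summed mitotic genes were at 2583 and 2306 CPM in positive and negative WT cells and at 2587 and 2433 CPM in the other library. Within groups of cells of like mitotic level, 0 to 2 members were at least 1.5-fold higher in either library. The share of all genes was not counted in these groups.

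**Figure D3:**
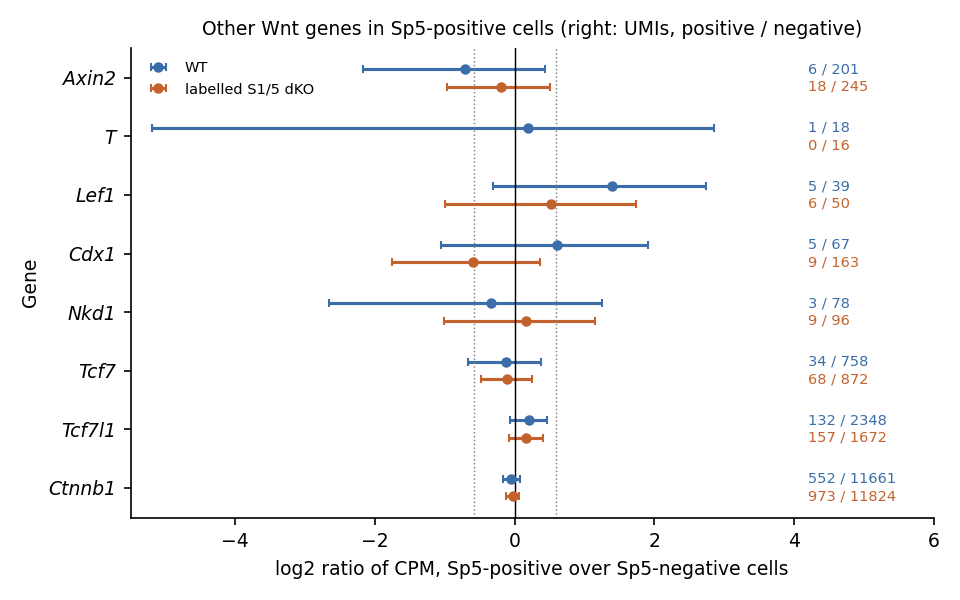
Log2 ratio of CPM in *Sp5*-positive over *Sp5*-negative cells for the 8 other genes, in WT (blue) and the dKO-labelled library (orange); bars are exact binomial intervals, dotted lines 1.5-fold, and the numbers at the right the UMIs in positive and negative cells. Every interval drawn holds 0; *T* in the dKO-labelled library has 0 UMIs in positive cells and no point.

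Taking *Sp5* at full depth gave larger groups, of 287 positive cells in WT and 481 in the other library. *Axin2* was then at 1.52 CPM in positive and 2.26 CPM in negative WT cells, with 21 UMIs in the positive cells and a log2 ratio of -0.57 (-1.30 to 0.08). *Axin2* was at 2.36 and 2.46 CPM in the dKO-labelled library, a log2 ratio of -0.06 (-0.56 to 0.41). The 6 response genes together had log2 ratios of 0.13 (-0.11 to 0.35) and -0.03 (-0.23 to 0.16). *Cdx1* again lay on opposite sides, at 0.88 (0.003 to 1.69) in WT from 17 UMIs and -0.76 (-1.53 to -0.07) in the other library from 19 UMIs, with both intervals narrowly off 0. *Lef1* was at 1.16 (0.07 to 2.16) in WT from 12 UMIs and at 0.40 (-0.66 to 1.35) in the other library. Positive cells at full depth were deeper in WT, with a median of 42380 against 38186 UMIs.

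Nor did the response genes climb with the *Sp5* count in the classes that held more than 2 cells. In the dKO-labelled library the 6 response genes stood at 14.4 CPM in cells with no *Sp5* UMI, 13.97 CPM with 1, 10.0 CPM with 2 and 13.6 CPM with 3 to 5. *Sp5* itself stood at 4.16, 63.8, 137 and 195 CPM in the same classes. *Axin2* stood at 2.44, 2.47, 1.11 and 2.26 CPM, the last 2 from 2 UMIs each. In WT the 6 genes stood at 12.7, 11.1 and 10.0 CPM with 0, 1 and 2 *Sp5* UMIs, the last from 7 UMIs (4.02 to 20.6 CPM). The 2 WT cells with 3 UMIs gave 75.1 CPM from 6 UMIs (27.55 to 163.4 CPM). That value lies above the other WT classes but rests on 2 cells. The 2 cells with 6 or more *Sp5* UMIs in the dKO-labelled library gave 14.5 CPM from 1 UMI.

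Co-detection showed no excess of *Axin2*. After thinning, 1 of the 100 *Sp5*-positive WT cells had an *Axin2* UMI (1.00%, 0.0253 to 5.45%), as had 38 of 2093 negative cells (1.82%). The dKO-labelled library gave 4 of 234 (1.71%, 0.468 to 4.32%) and 68 of 2609 (2.61%). A *Lef1* UMI was left after thinning in 0 of 234 positive cells of the dKO-labelled library (exact upper bound 1.56%) and in 16 of 2609 negative ones (0.613%), while the same positive cells held 6 *Lef1* UMIs at full depth. *Tcf7* was found in 28 of 234 positive cells there (12.0%, 8.10 to 16.8%) and 213 of 2609 negative ones (8.16%), while in WT these shares were 10.0% and 7.79%.

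The levels of *Tcf7l1* and *Cdx1* were also compared between libraries within each *Sp5* class. The *Sp5*-negative cells are 2093 of 2193 WT cells and 2609 of 2843 others, so their ratios had to come close to those of the whole libraries. *Tcf7l1* was at 25.7 CPM in negative WT cells and 16.7 CPM in negative cells of the other library, and at 29.6 and 18.7 CPM in positive cells, log2 ratios of -0.63 and -0.66. *Cdx1* was at 0.734 and 1.63 CPM in negative cells, a log2 ratio of 1.15 (0.73 to 1.58). In positive cells it was at 1.12 and 1.07 CPM, a log2 ratio of -0.07 (-1.80 to 1.86), from 5 and 9 UMIs.

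Each of the 9 genes was next used in turn to divide the cells. Of 56 ordered pairs in which the gene measured had at least 50 UMIs in each library, 2 had a log2 ratio whose interval lay off 0 with the same sign in both libraries, and 10 had one off 0 in 1 library only. Over all genes and the same 9 splits the first share was 2.76%, so the 2 pairs are near the background. The share off 0 in 1 library only was not counted over all genes, so the 10 pairs have no background beside them. In *Cdx1*-positive cells *Tcf7l1* was lower, at 15.1 against 26.0 CPM in WT (14 UMIs; log2 ratio -0.79, -1.66 to -0.04) and at 9.35 against 16.9 CPM in the other library (15 UMIs; -0.86, -1.70 to -0.13). In *Lef1*-positive cells, 9 and 16 cells, *Ctnnb1* was higher, with log2 ratios of 0.40 (0.02 to 0.75) and 0.44 (0.14 to 0.73). The level of *Sp5* was higher in *Tcf7*-positive cells of the dKO-labelled library, at 17.7 against 10.8 CPM, a log2 ratio of 0.72 (0.47 to 0.96). In WT it was at 7.12 against 5.35 CPM, a log2 ratio of 0.41 (-0.01 to 0.81), and in *Ctnnb1*-positive WT cells at 5.97 against 4.42 CPM, a log2 ratio of 0.43 (0.14 to 0.73). In the dKO-labelled library *Sp5* was lower in *Cdx1*-positive cells, at 4.99 against 11.4 CPM (-1.20, -2.41 to -0.21), and in its *Ctnnb1* split the log2 ratio of *Sp5* was 0.06 (-0.11 to 0.24). The same *Cdx1* split in WT had a log2 ratio of 0.83 (-0.31 to 1.76). In *Axin2*-positive cells, 39 and 72 cells, *Sp5* had log2 ratios of -0.55 (-2.01 to 0.58) and -0.59 (-1.29 to 0.03).

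**Figure D4:**
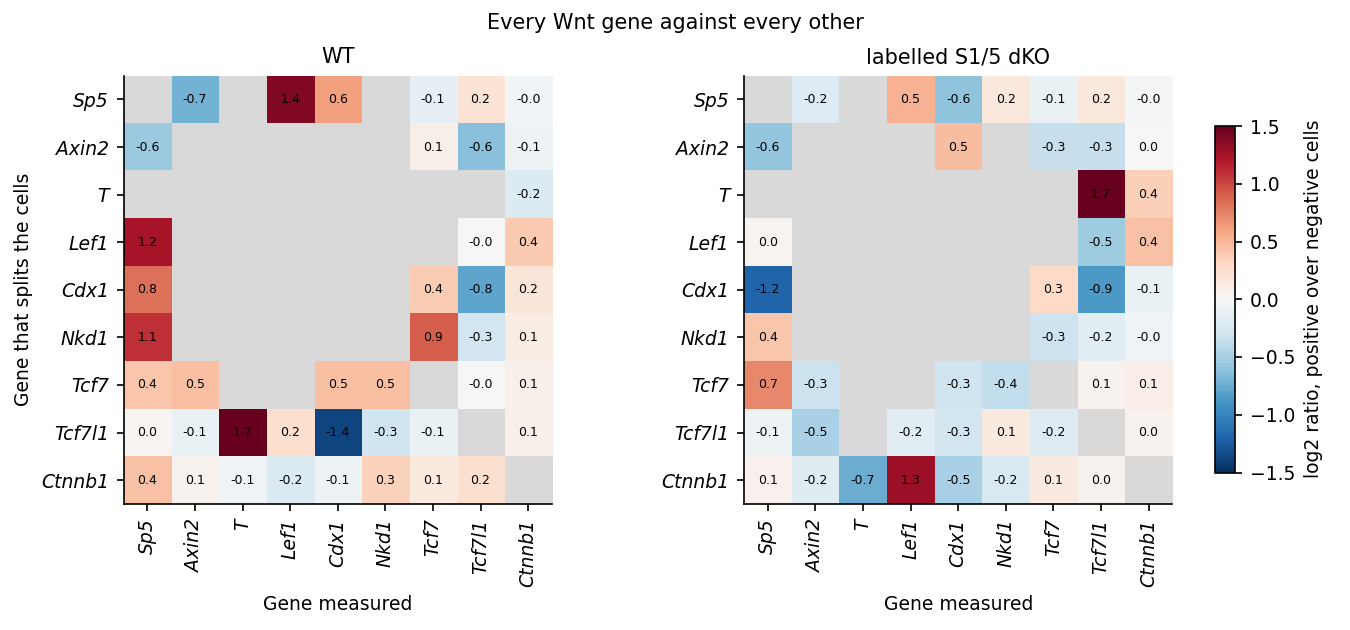
Log2 ratio of CPM in positive over negative cells when each gene in a row splits the cells and each gene in a column is measured, in WT (left) and the dKO-labelled library (right); grey marks the gene itself and pairs with under 5 UMIs in positive cells, and colours are held at 1.5 on either side. *Cdx1* as the splitting gene gave *Tcf7l1* values of -0.79 and -0.86, and *Sp5* as the splitting gene gave *Axin2* values of -0.71 and -0.19.

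Across the wider pathway, how many genes were higher in *Sp5*-positive cells depended on the depth. Of the 114 listed Wnt genes, 74 had at least 50 UMIs in WT, of which 2 were at least 1.5-fold higher in positive cells (*Cdx1* and *Fzd2*) and 9 lower, beside 6.09% and 8.15% of all genes. With cells thinned to 5000 UMIs, 16 of the 74 were higher in the 54 positive WT cells (21.6%), beside 9.99% of all genes, and with cells thinned to 20000 UMIs 4 were (5.41%), beside 5.12%. In the dKO-labelled library 7 of 76 were higher (*Apc2*, *Fzd2*, *Nkd2*, *Pygo1*, *Sfrp2*, *Wls* and *Wnt5a*) and 11 lower, beside 5.37% and 9.25%. *Sfrp2*, a secreted Wnt inhibitor, was at 24.8 against 13.3 CPM there (0.89, 0.67 to 1.10), *Wls* had a log2 ratio of 1.49 (0.76 to 2.15) from 23 UMIs in positive cells, and *Nkd2*, a relative of *Nkd1*, one of 1.13 (0.22 to 1.93) from 15 UMIs. *Nkd2* and *Wls* were among the 9 genes at least 1.5-fold lower in WT. Their WT log2 ratios were -0.60 and -0.73, from 2 and 6 UMIs in positive cells, with intervals that hold 0. The median log2 ratio was 0.02 in WT and -0.06 in the other library, against 0.01 and -0.01 over all genes. Of the 27 listed targets, *Sp5* left out, 15 and 16 had enough UMIs, with medians of 0.12 and 0.04.

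One receptor stood higher in both libraries. *Fzd2*, a Frizzled receptor, was at 13.5 CPM in positive and 7.31 CPM in negative WT cells, a log2 ratio of 0.88 (0.47 to 1.26), and at 13.9 and 5.89 CPM in the other library, a log2 ratio of 1.24 (0.94 to 1.53). The WT value was under 1.5-fold from thinned UMIs, at 0.30, and in the middle of 3 groups by mitotic genes, at 0.46. The ligand gene *Wnt10a* was lower, with log2 ratios of -1.15 (-3.04 to 0.23) and -0.69 (-1.78 to 0.22), from 4 and 10 UMIs in positive cells. *Fgf8*, a growth factor gene of the primitive streak, had log2 ratios of 0.90 and 0.70 from 5 and 9 UMIs, with intervals that hold 0.

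*Tbx3*, a T-box factor of the naïve pluripotency network and a listed target of TCF7L1 repression, was lower in positive cells of both libraries. It was at 31.8 against 61.9 CPM in WT, a log2 ratio of -0.96 (-1.21 to -0.72), and at 15.1 against 76.7 CPM in the dKO-labelled library, a log2 ratio of -2.34 (-2.61 to -2.09). There *Tbx3* stood at 76.7, 19.3, 8.35 and 3.39 CPM in cells with 0, 1, 2 and 3 to 5 *Sp5* UMIs. In WT it stood at 61.9, 34.2 and 20.02 CPM with 0, 1 and 2. *Tbx3* was the one gene of the 8 on that list at least 1.5-fold lower in either library, where 8.15% (WT) and 9.25% of all genes were lower. The list's median was -0.09 in WT and -0.28 in the other.

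BMP target genes were set beside these because SMAD1/5 were targeted. *Id2*, an inhibitor of basic helix-loop-helix factors, was higher in *Sp5*-positive cells of both libraries, at 103 against 54.8 CPM in WT (log2 ratio 0.91, 0.77 to 1.05) and 34.9 against 15.3 CPM in the other (1.19, 1.00 to 1.37); in the middle of 3 WT groups by mitotic genes it was at 0.36. *Id1* differed in sign, at 446 against 317 CPM in WT (0.49, 0.43 to 0.56) and 94.6 against 166 CPM in the dKO-labelled library (-0.81, -0.92 to -0.71). *Id3* had log2 ratios of 0.63 and 0.15. Of the 7 listed BMP targets with enough UMIs, 3 were at least 1.5-fold higher and none lower in WT, beside 6.09% and 8.15% of all genes. In the other library 1 was higher and 3 lower, beside 5.37% and 9.25%. Among these, *Smad6* rested on 17 UMIs in positive WT cells and *Id4* on 6 UMIs in those of the other library.

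**Figure D5:**
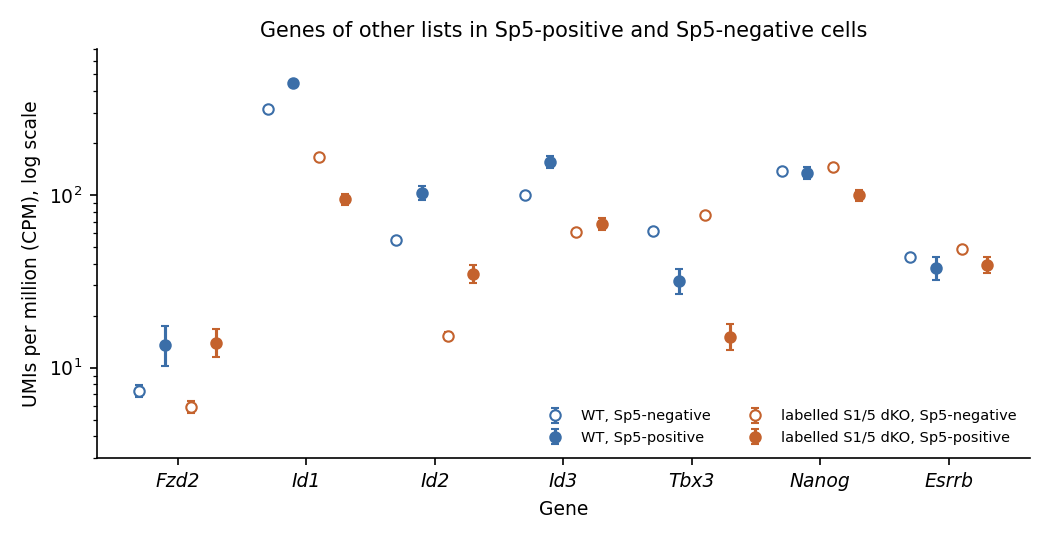
Level of *Fzd2*, 3 *Id* genes and 3 pluripotency genes in *Sp5*-negative (open) and *Sp5*-positive (filled) cells of WT (blue) and the dKO-labelled library (orange), as CPM on a log axis with exact Poisson intervals. *Tbx3* stands at 76.7 CPM in negative and 15.1 CPM in positive cells of the dKO-labelled library, and *Id1* runs in opposite directions in the libraries.

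The genes most like *Sp5* by this split, ranked over 7984 genes with at least 500 UMIs in each library by the smaller of their log2 ratios, held no listed Wnt gene among the 5 highest. With only 114 genes listed, this was likely in advance, and nothing is concluded from it. The minimum also left out *Axin2*, *T*, *Lef1*, *Cdx1* and *Nkd1*. *Ccnd2*, a D-type cyclin, was at 19.3 against 8.06 CPM in WT (1.26) and 16.1 against 5.36 CPM in the other library (1.58). *Ptch1*, the Hedgehog receptor, was at 23.1 against 9.71 CPM (1.25) and 32.9 against 10.6 CPM (1.63). *Sulf1*, an extracellular sulfatase that trims heparan sulfate, had log2 ratios of 1.22 and 1.12, and of 0.36 in WT with cells thinned to 5000 UMIs. *Slc27a2*, a fatty acid transporter, and *Pea15a* had log2 ratios of 1.01 and 1.00 in WT and 1.16 and 1.24 in the other library. With cells thinned to 5000 UMIs, the WT values of *Ptch1*, *Slc27a2* and *Pea15a* were 0.557, 0.574 and 0.580, also under 1.5-fold. At the other end were *Slc11a1*, a metal ion transporter (-1.34 and -3.49), *Cpe*, carboxypeptidase E (-1.14 and -1.91), *Aff1* (-1.51 and -1.13) and *Gm48170* (-1.11 and -1.55). The WT values of *Aff1*, *Cpe* and *Slc11a1* reached -0.20, 0.16 and -0.25 under other settings. *Gm21761* had 0 UMIs in positive WT cells against 9.60 CPM in negative ones, and 2 UMIs in positive cells of the other library. The upper bound of its WT log2 ratio was -3.53 by counting error, which leaves out uneven spread over cells.

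When *Axin2* split the cells in the same way, different genes led. The highest were *Nfib*, a nuclear factor I gene (0.85 and 0.85), *Phf8*, a histone demethylase (1.74 and 0.80), *Arhgef39* (0.75 and 0.77), *Fam120b* (1.12 and 0.71) and *En2*, a homeobox gene (0.98 and 0.69), each ratio given for WT and then for the dKO-labelled library. They rest on 14 to 36 UMIs in positive WT cells and 23 to 55 in those of the other library. Of the listed Wnt genes, 13 of 74 were at least 1.5-fold higher in *Axin2*-positive WT cells and 7 lower, beside 10.5% and 12.1% of all genes. Among *Axin2*-positive cells of the dKO-labelled library 4 of 76 were higher and 9 lower, beside 7.25% and 10.2%.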

How the data were processed

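Each library was made with the 10x Chromium 3′ v3 kit. The authors aligned the reads to mm10 with Cell Ranger 3.0.2 and deposited UMI counts for every barcode, with no normalization. From these counts, cells with at least 1000 genes and no more than 5% of UMIs from mitochondrial genes were analysed, the filter of the study; doublets were not removed. UMIs were summed over cells and scaled to 1000000. Levels carry exact Poisson intervals, ratios exact conditional binomial intervals and shares exact binomial intervals, at 95%. Cells were thinned at random to 10000 UMIs to decide which were positive, and levels used all UMIs of the same cells. A gene needed 50 UMIs to enter a count and 1.5-fold to be counted as apart. The named genes were all members, *Smad1*, *Smad5*, listed genes past 1.5-fold in the same direction in both libraries, and the 5 genes at each end of the ranking for *Sp5* and the 5 highest for *Axin2*, among genes with 500 UMIs; the other *Id* genes, *Wnt* genes at least 1.5-fold apart between libraries, and single values of other listed genes were named after their values were seen. Members and gene lists were chosen with earlier results of these data known. A listed gene, *Tle5*, was not found under that symbol. On simulated data for the *Sp5* split of the dKO-labelled library, 200 of 200 changed genes came out in the right direction over 12614 genes, and 900 of 12414 unchanged genes passed 1.5-fold by counting error. The changed genes were drawn from those with at least 500 UMIs. *Axin2*, *T*, *Lef1*, *Cdx1* and *Nkd1* have fewer, so the simulation does not show how well a change in them would be recovered. Windows came from the RefSeq promoter table, with an entry used for 8 of the 9 genes; the *Cdx1* window is not used here. Python 3.11.15, numpy 2.4.6, scipy 1.17.1, pandas 2.3.3 and edgeR 4.0.16 (TMM factors only) were used. Alternatives were other depths, thresholds, filters, scalings and splits by mitotic genes.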

Additional observations from a re-analysis of the deposited data

Results flagged for a closer look

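The *Id1* ratio of *Sp5*-positive over *Sp5*-negative cells lay on opposite sides in the libraries, with a log2 ratio of 0.49 in WT and -0.81 in the dKO-labelled library. Over the 12 alternatives it stayed between 0.40 and 0.73 in WT and between -1.05 and -0.53 in the other library. *Top2a*, a mitotic gene, also lay on opposite sides, at 0.10 and -0.077. With 1 library per genotype the difference between the libraries was not tested for either gene.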

How the results depend on the processing

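Of 840 log2 ratios recomputed under alternatives, 62 had the other sign, 7 of them with a reported value of at least 1.5-fold. Of 459 recomputed from reported values of at least 1.5-fold, 59 came out under 1.5-fold or with the other sign, among them values of *Axin2*, *Cdx1*, *Cpe*, *Aff1*, *Fgf8*, *Wnt10a* and *Id3*. Between the libraries, thinning all cells to 10000 UMIs put 5 members past 1.5-fold in place of 3, adding *Axin2* and *Lef1*. The share of *Sp5*-positive cells was 2.44% in WT and 4.32% in the dKO-labelled library at 5000 UMIs, 8.47% and 11.6% at 20000 UMIs, and 0.821% and 2.71% with at least 2 *Sp5* UMIs. The number of members at least 1.5-fold higher in *Sp5*-positive WT cells, 1 as reported, was 3 at 5000 UMIs, beside 9.99% of all genes. It was 0 at 20000 UMIs (beside 5.12%) and 2 with at least 2 *Sp5* UMIs (beside 12.9%). From thinned UMIs it was 0, and it was 0, 2 and 0 in the lowest, middle and highest of 3 groups of cells by mitotic genes. In the dKO-labelled library, 0 as reported, it was 2 at 20000 UMIs (*Lef1* and *Nkd1*), beside 5.17% of all genes. There it was 1 from thinned UMIs (*Tcf7*), and 2 and 1 in the lowest and middle group. For thinned UMIs and the mitotic groups the share over all genes was not counted. The number of listed Wnt genes higher in WT, 2 as reported, was 16 at 5000 UMIs (21.6% of those tested, beside 9.99% of all genes), 4 at 20000 (5.41%, beside 5.12%), 12 with at least 2 *Sp5* UMIs (16.2%, beside 12.9%), 9 with a minimum of 20 UMIs per gene (10.6%, beside 8.55%) and 1 with 200 (1.72%, beside 2.81%). In the other library, 7 as reported, it was 13 with 20 (14.9%, beside 7.38%) and 2 with 200 (3.39%, beside 2.75%). Fewer positive cells or lower minimums leave fewer UMIs per gene; otherwise the cause was not tested. At 5000 UMIs, with 54 positive WT cells, *Axin2* turned to 0.62, *Cpe* to 0.16, *Smad6* to -0.45 and *Wnt10a* to 0.78; *Cdx1* turned to -0.044 in the highest mitotic group of WT, and *Fgf8* in the dKO-labelled library to -0.25 at 20000 UMIs and -1.27 in the middle group. No paired analysis was possible because each genotype has 1 library, and for the same reason no library could be left out. Counting depth limits *T*, *Lef1*, *Cdx1* and *Nkd1* most.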

Other observations

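Listed pluripotency and Wnt target genes outside the named set were placed beside the *Sp5* split. *Nr0b1*, a repressor in the naïve network, had log2 ratios of 0.34 in WT and 0.44 in the dKO-labelled library, and *Ccnd1*, a D-type cyclin gene, 0.23 and 0.26. *Nanog* had log2 ratios of -0.04 and -0.55 and *Esrrb* of -0.21 and -0.31. *Smad7*, an inhibitory SMAD gene, was at -0.10 and -0.62, and *Notum*, which removes the lipid from Wnt ligands, at 0.03 and -0.18. These were chosen after their values were seen, and the differences between libraries were not tested.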
